A study of Mus musculus with 8 samples.

Results

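The mouse Hox genes are 39 protein-coding genes in 4 chromosomal clusters, with 11 genes in the Hoxa cluster, 10 in Hoxb, 9 in Hoxc and 9 in Hoxd. They were identified by symbol, a rule that uses no measured value, and all 39 were found among the 53700 gene rows of the count table. RNA bound to GFP-tagged ribosomes was recovered from mouse skin with an antibody against GFP and sequenced in bulk, in 8 libraries made from 20 ng of RNA each. Every animal carried the alleles AdipoqCreER and R26-NuTRAP and received tamoxifen. AdipoqCreER is a Cre recombinase that tamoxifen switches on and that is driven from the promoter of the fat cell hormone adiponectin, and NuTRAP is a reporter at the Rosa26 locus that puts GFP on the ribosomes of a cell once Cre has acted in it. The groups were uninjured skin (n = 3), skin of mice labelled as 3 days after wounding (n = 2) and skin of mice labelled as 7 days after wounding (n = 3). Wounding was done on the back, with 4 full-thickness holes made by a 5 mm punch in mice 7 to 9 weeks old, while the hair cycle was at rest. The tag is permanent, so RNA is still recovered from a tagged cell that has changed its state since tamoxifen, and input or unbound RNA was not used here. The labels do not say whether libraries of a group came from separate animals, so p-values measure the spread between libraries, which may be technical. The numbers that start the column names in the count table differ by group, 1 number for each, so whatever they mark and the group cannot be told apart.

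Hox proteins are transcription factors that bind DNA through a conserved segment, the homeodomain. Within each cluster the genes are numbered from 1 at one end to 13 at the other, genes with the same number in different clusters are paralogues, and the order along the cluster follows the order of expression along the body, with low numbers reaching furthest toward the head and high numbers marking the tail end and the tips of the limbs. Adult skin fibroblasts and fat depots keep a combination of active Hox genes that depends on their place in the body, which is why the combination can be read as a positional code.

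The homeobox, the 180 bases that encode the homeodomain, is the stretch the members have most in common, and its letters show how far apart the 3 genes of paralogue group 8 are. It is given 5′ to 3′ for Hoxc8, the member with the highest level, and for its paralogues Hoxb8 and Hoxd8, of which Hoxd8 changed at day 7. Capitals mark bases that differ from Hoxc8, which is therefore in lower case throughout.
Hoxc8 homeobox: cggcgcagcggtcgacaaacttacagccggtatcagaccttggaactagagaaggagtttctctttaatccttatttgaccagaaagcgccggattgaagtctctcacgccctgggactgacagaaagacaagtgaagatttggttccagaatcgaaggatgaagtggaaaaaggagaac
Hoxb8 homeobox: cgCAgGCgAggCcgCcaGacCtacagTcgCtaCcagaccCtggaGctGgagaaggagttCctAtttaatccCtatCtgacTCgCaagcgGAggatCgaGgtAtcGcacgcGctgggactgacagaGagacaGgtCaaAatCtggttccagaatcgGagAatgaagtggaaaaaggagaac
Hoxd8 homeobox: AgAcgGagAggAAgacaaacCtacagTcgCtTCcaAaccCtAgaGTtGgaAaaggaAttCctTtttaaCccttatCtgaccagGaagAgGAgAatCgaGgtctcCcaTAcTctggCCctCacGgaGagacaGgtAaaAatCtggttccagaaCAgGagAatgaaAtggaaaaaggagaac
Within this stretch Hoxb8 differed from Hoxc8 at 36 bases (80.0% identity) and Hoxd8 at 48 (73.3%). The stretches were read from the longest GENCODE M21 transcript of each gene that holds a homeobox. Over the 741 pairs of members, the longest run of identical bases shared by both transcripts was 52 bases, between Hoxa6 and Hoxb4, the median was 15, and 2 pairs reached 50 bases.

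The 250 bases before the start of transcription are given next for the 3 genes that changed at day 7, 5′ to 3′ on the strand of the gene, from RefSeq on GRCm38.p6. They were searched on both strands for 3 motifs tied to Hox binding, TGATNNAT (the site bound jointly by Hox and Pbx proteins), TAATTA (a core homeodomain site) and TTTATGG (a site of the 5′ Hox proteins). Capitals would mark a match.
Hoxb4 promoter, chr11:96318017-96318266: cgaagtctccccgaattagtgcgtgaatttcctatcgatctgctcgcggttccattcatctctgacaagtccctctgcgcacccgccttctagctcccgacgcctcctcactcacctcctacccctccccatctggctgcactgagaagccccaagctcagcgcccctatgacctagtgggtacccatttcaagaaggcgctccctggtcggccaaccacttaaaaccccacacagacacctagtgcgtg
Hoxa7 promoter, chr6:52218574-52218823: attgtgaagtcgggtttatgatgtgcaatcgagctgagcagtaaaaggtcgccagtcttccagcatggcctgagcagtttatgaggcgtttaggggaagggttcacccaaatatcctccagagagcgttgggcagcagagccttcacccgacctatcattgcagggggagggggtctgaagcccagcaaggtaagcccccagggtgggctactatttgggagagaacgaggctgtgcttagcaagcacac
Hoxd8 promoter, chr2:74704365-74704614: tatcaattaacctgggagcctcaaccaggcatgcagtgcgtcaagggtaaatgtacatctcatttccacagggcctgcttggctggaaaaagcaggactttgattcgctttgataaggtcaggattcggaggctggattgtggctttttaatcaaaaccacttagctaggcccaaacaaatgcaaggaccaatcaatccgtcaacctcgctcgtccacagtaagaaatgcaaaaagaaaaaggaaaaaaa
No match to any of these letters lay in the 3 windows. Over all 32851 promoter windows of this length, 7.683% held TGATNNAT, 4.84% held TAATTA and 2.426% held TTTATGG. Among the 24 windows of the 22 Hox genes in the RefSeq table, the motifs were found in 4, 2 and 1 windows.

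Libraries held 5308959 to 17751689 counts, of which 1580 to 6202 fell on Hox genes. A gene with no count in the shallowest library can have a true level of up to 0.565 CPM (counts scaled to a common library total) there, from a limit of 3 counts that covers counting error only. Levels below are CPM scaled by the trimmed mean of M values, and fold changes are log2 values ± their standard errors from edgeR's quasi-likelihood test over 18656 genes, with Benjamini-Hochberg adjustment and a threshold of 0.05. The 15 adipocyte markers all had counts in each of the 8 libraries. Their summed level was 109924 to 137585 CPM in uninjured skin, 111218 to 139527 CPM at day 3 and 65556 to 146545 CPM at day 7. At day 7, 9 of 15 fibroblast, 8 of 11 endothelial, 5 of 11 macrophage and 10 of 11 luminal mammary epithelial markers were called higher than in uninjured skin, 11 of 14 skeletal muscle markers were called lower, and 0 of 11 keratinocyte and hair follicle markers were called. The background over all genes tested was 5.9% called higher and 1.77% called lower. Of the 15 adipocyte markers 0 were called, with a median log2 fold change of -0.53. Among 10 tested pericyte and vascular smooth muscle markers, 4 were called higher and 1 lower. Among 8 tested Schwann cell and melanocyte markers, 1 was called higher and 1 lower. A change in bulk RNA of this kind does not separate fewer cells of a type from less RNA per cell.

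The Hox level peaked at paralogue group 8, within the range that the embryo uses in the trunk. Hoxc8, which patterns the thoracic skeleton and motor neurons, had the highest level per kilobase of transcript of all 39 members in each of the 8 libraries, and it alone made up 25.6% to 33.3% of the summed Hox level. Its level was 116, 103 and 156 CPM in uninjured skin, 101 and 90.02 CPM at day 3 and 117, 111 and 128 CPM at day 7. Its libraries overlapped between day 7 and uninjured skin, and the difference of -0.07 ± 0.22 was not called (adjusted p = 0.846).

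**Figure D1:**
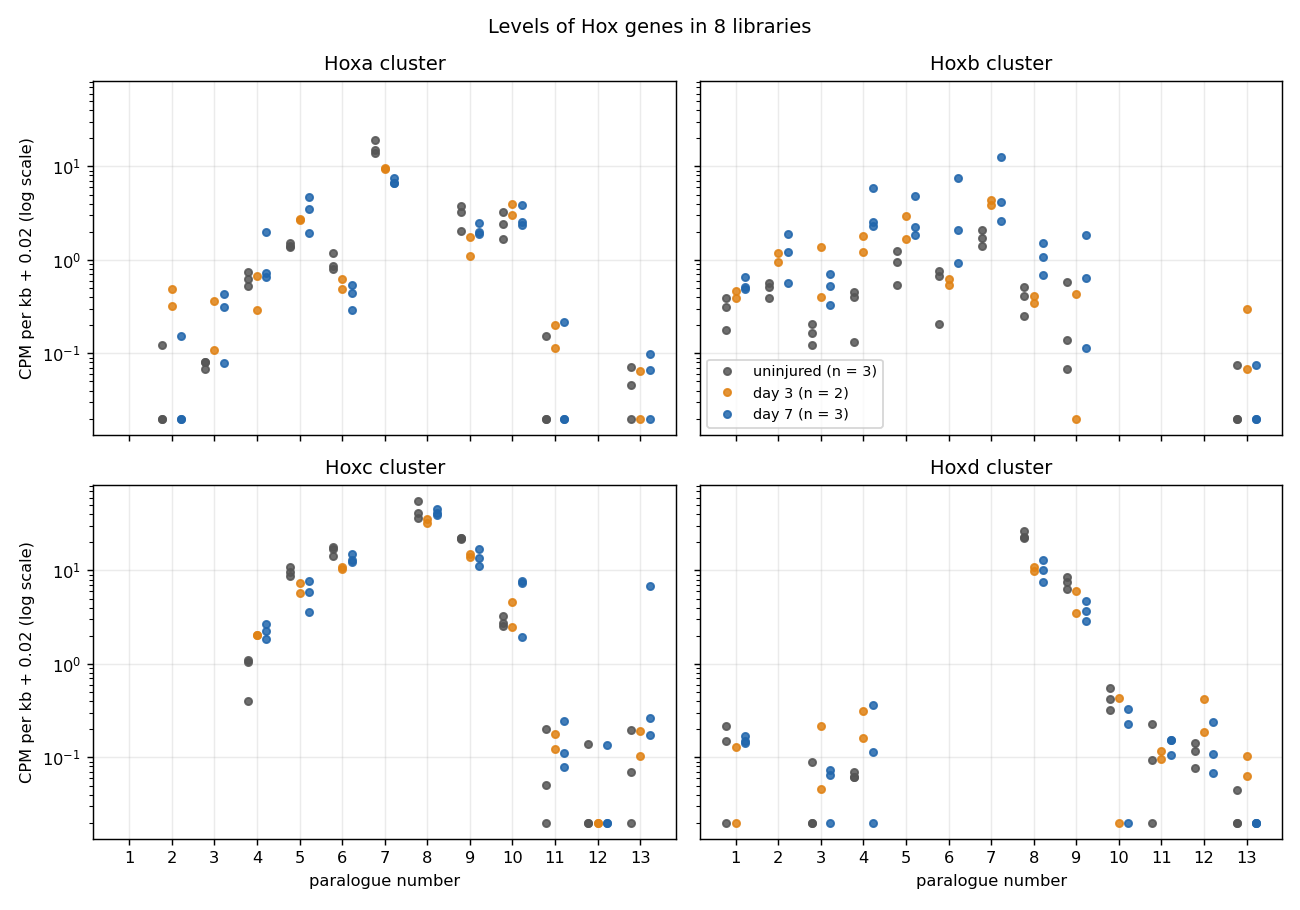
Level of Hox genes in CPM per kilobase (log scale, with 0.02 added so that zeros can be drawn) against paralogue number, with 1 panel per cluster and 1 point per library. Hoxc8 stands at the top in every group, and the points of paralogue groups 11 to 13 lie near the floor except for Hoxc13 in 1 day 7 library.

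In uninjured skin, Hoxc8 averaged 44.2 ± 9.79 CPM per kilobase (SD, n = 3), followed by Hoxd8 at 23.96 ± 2.24, Hoxc9 at 22.1 ± 0.312, Hoxc6 at 16.4 ± 1.95, Hoxa7 at 15.99 ± 2.61, Hoxc5 at 9.78 ± 1.09 and Hoxd9 at 7.45 ± 1.079. Among these, only Hoxc6 had libraries that overlapped with those of the next gene, Hoxa7. The step from Hoxd8 to Hoxc9 was smaller than the SD of Hoxd8, although their libraries did not overlap. At day 3, Hoxc8 averaged 33.7 ± 2.68 CPM per kilobase (SD, n = 2), ahead of Hoxc9 at 14.5 ± 0.644, Hoxc6 at 10.6 ± 0.230, Hoxd8 at 10.3 ± 0.849 and Hoxa7 at 9.46 ± 0.132, with overlap between Hoxc6 and Hoxd8. At day 7, Hoxc8 averaged 41.9 ± 3.01 CPM per kilobase (SD, n = 3), ahead of Hoxc9 at 13.8 ± 2.92, Hoxc6 at 13.5 ± 1.44, Hoxd8 at 10.1 ± 2.68, Hoxa7 at 6.92 ± 0.451 and Hoxb7 at 6.42 ± 5.36. The steps from Hoxc9 through Hoxc6 to Hoxd8, and that from Hoxa7 to Hoxb7, were within the spread at day 7. Hoxd8 thus held the second place in uninjured skin and the fourth place at both times after wounding, while the sixth place of Hoxb7 at day 7 rested on library 1, with 12.5 CPM per kilobase there and 4.17 and 2.56 in the other two, and its libraries overlapped with those of the next gene, Hoxc10.

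Day 7 against uninjured skin asks which Hox genes differ 7 days after wounding. In all, 24 of the 39 members had enough counts to be tested. Of these, 1 was called higher (Hoxb4) and 2 were called lower (Hoxa7 and Hoxd8), which is 12.5% of the tested members beside a background of 7.67% of all genes tested. By direction, the background was 5.9% higher and 1.77% lower. Libraries of both groups did not overlap for 15 of the 24, 10 higher and 5 lower at day 7, or 62.5% beside a background of 30.2% (16.7% higher and 13.5% lower). The median log2 fold change of the 24 was 0.97, beside 0.04 for all genes, with 16 values above 0 and 8 below. Some of the 16, such as Hoxb4, passed the filter on low counts only with the help of wounded libraries.

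Hoxb4, known for its part in the neck region and in blood stem cells, had the largest fold change of the 24. It had 1.10, 0.980 and 0.289 CPM in uninjured skin, 3.08 and 4.60 CPM at day 3 and 15.1, 6.44 and 5.87 CPM at day 7. All 3 day 7 libraries lay above all 3 uninjured libraries, day 7 library 1 was the highest, and both day 3 libraries fell in the gap between these groups. At day 7 Hoxb4 rose by 3.46 ± 0.58 on the log2 scale relative to uninjured skin, a 10.99-fold difference (adjusted p = 0.00889). The call held without day 7 library 1 and under each of the 14 alternative settings, with log2 values of 2.89 to 3.69 and adjusted p-values of up to 0.0386. The gene lies on chromosome 11 at 96209093 to 96212464 on the plus strand in the deposited table, and its exons share no base with another annotated gene.

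Every one of the 9 tested Hoxb genes had a positive fold change at day 7, with a median of 1.74, and 8 of the 9 had all day 7 libraries above all uninjured libraries, beside 16.7% of all genes, although Hoxb4 was the 1 member called. Hoxb1, Hoxb3, Hoxb4, Hoxb8 and Hoxb9 averaged 0.635, 0.613, 0.789, 0.984 and 0.624 CPM in uninjured skin. On the uninjured libraries alone they would not have passed the filter on low counts. Their entry into the test depended on wounded libraries, so the filter can favour a shared positive direction. How far it did so was not tested. Hoxb1, active in the hindbrain of the embryo, had 0.366, 0.674 and 0.867 CPM in uninjured skin, 1.03 and 0.855 CPM at day 3 and 1.13, 1.49 and 1.08 CPM at day 7. Hoxb2, a neighbour active in the hindbrain as well, had 1.71, 1.90 and 1.30 CPM in uninjured skin, 4.11 and 3.21 CPM at day 3 and 6.57, 4.20 and 1.92 CPM at day 7. Hoxb3 had 0.610, 0.796 and 0.433 CPM in uninjured skin, 5.76 and 1.60 CPM at day 3 and 2.94, 2.15 and 1.32 CPM at day 7. For these 3 genes at the low end of the cluster the day 7 libraries were all above the uninjured ones, with fold changes of 0.95 ± 0.63 for Hoxb1, 1.35 ± 0.52 for Hoxb2 and 1.74 ± 0.65 for Hoxb3 (adjusted p = 0.345, 0.129 and 0.120). The antisense gene Hoxb3os covers 52.9% of the exon bases of Hoxb3 and 27.3% of those of Hoxb2, and without a stated strand setting its reads cannot be told from theirs. Hoxb3os itself had 1.34, 0.674 and 0.289 CPM in uninjured skin, 12.3 and 2.57 CPM at day 3 and 4.42, 4.11 and 3.47 CPM at day 7.

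Hoxb5 to Hoxb8, from the middle of the cluster, are used in the neck and thorax of the embryo. Hoxb5 had 2.56, 3.43 and 1.44 CPM in uninjured skin, 8.23 and 4.60 CPM at day 3 and 13.5, 5.13 and 6.23 CPM at day 7. Hoxb6 had 0.366, 1.29 and 1.44 CPM in uninjured skin, 1.03 and 1.18 CPM at day 3 and 14.6, 4.01 and 1.80 CPM at day 7. Hoxb7 had 3.17, 2.14 and 2.60 CPM in uninjured skin, 6.79 and 5.88 CPM at day 3 and 19.4, 6.44 and 3.95 CPM at day 7. Day 7 library 1 was the highest library for each of these genes, and for Hoxb6 it stood more than 3-fold above day 7 library 2. The fold changes at day 7 were 1.70 ± 0.50 for Hoxb5 (adjusted p = 0.0630), 2.69 ± 0.77 for Hoxb6 (adjusted p = 0.0576) and 1.91 ± 0.56 for Hoxb7 (adjusted p = 0.0598), just short of the threshold. All 3 passed it without day 7 library 3, with adjusted p-values of 0.0364 for Hoxb5, 0.0134 for Hoxb6 and 0.01295 for Hoxb7. Without day 7 library 1 the log2 fold changes were 1.16 for Hoxb5, 1.47 for Hoxb6 and 0.98 for Hoxb7 (adjusted p = 0.274, 0.321 and 0.304). DESeq2 called all 3 higher with all libraries (adjusted p = 0.0169, 0.00661 and 0.0109). Without day 7 library 3, 8 members were called higher and 4 lower, against 1 and 2 with all libraries, while over all genes the calls were 2616 higher and 1439 lower, against 1101 and 330. Hoxb8 had 0.610, 1.04 and 1.30 CPM in uninjured skin, 1.03 and 0.855 CPM at day 3 and 3.96, 1.77 and 2.75 CPM at day 7, and Hoxb9, at the tail end of the cluster, had 0.122, 0.306 and 1.44 CPM in uninjured skin, 0 and 1.07 CPM at day 3 and 4.75, 1.59 and 0.240 CPM at day 7. Day 7 libraries of Hoxb8 were above the uninjured ones, those of Hoxb9 overlapped with them, and neither gene was called (log2 fold changes 1.51 ± 0.56 and 1.89 ± 1.15, adjusted p = 0.119 and 0.307). Endothelial, fibroblast, macrophage and luminal mammary epithelial markers moved in the same direction as the Hoxb genes at day 7. Summed endothelial markers were 141 to 526 CPM at day 7 and 84.04 to 173 CPM in uninjured skin, and summed fibroblast markers were 6606 to 12956 CPM at day 7 and 1978 to 2494 CPM in uninjured skin. Summed macrophage markers were 499 to 1132 CPM at day 7 and 123 to 274 CPM in uninjured skin. Summed luminal mammary epithelial markers were 683 to 1415 CPM at day 7 and 48.5 to 74.9 CPM in uninjured skin. Day 7 library 3 was the lowest of its group for each of these marker sums and for the tested Hoxb genes except Hoxb5 and Hoxb8, which were lowest in library 2. Summed adipocyte markers were highest in day 7 library 3, at 146545 CPM, against 65556 and 82481 CPM in day 7 libraries 1 and 2. The fibroblast sum was highest in day 7 library 2, at 12956 CPM, against 8561 CPM in library 1. In day 3 library 1 it was 1886 CPM, below all uninjured libraries. The part of these cell types in the Hoxb values was not tested.

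**Figure D2:**
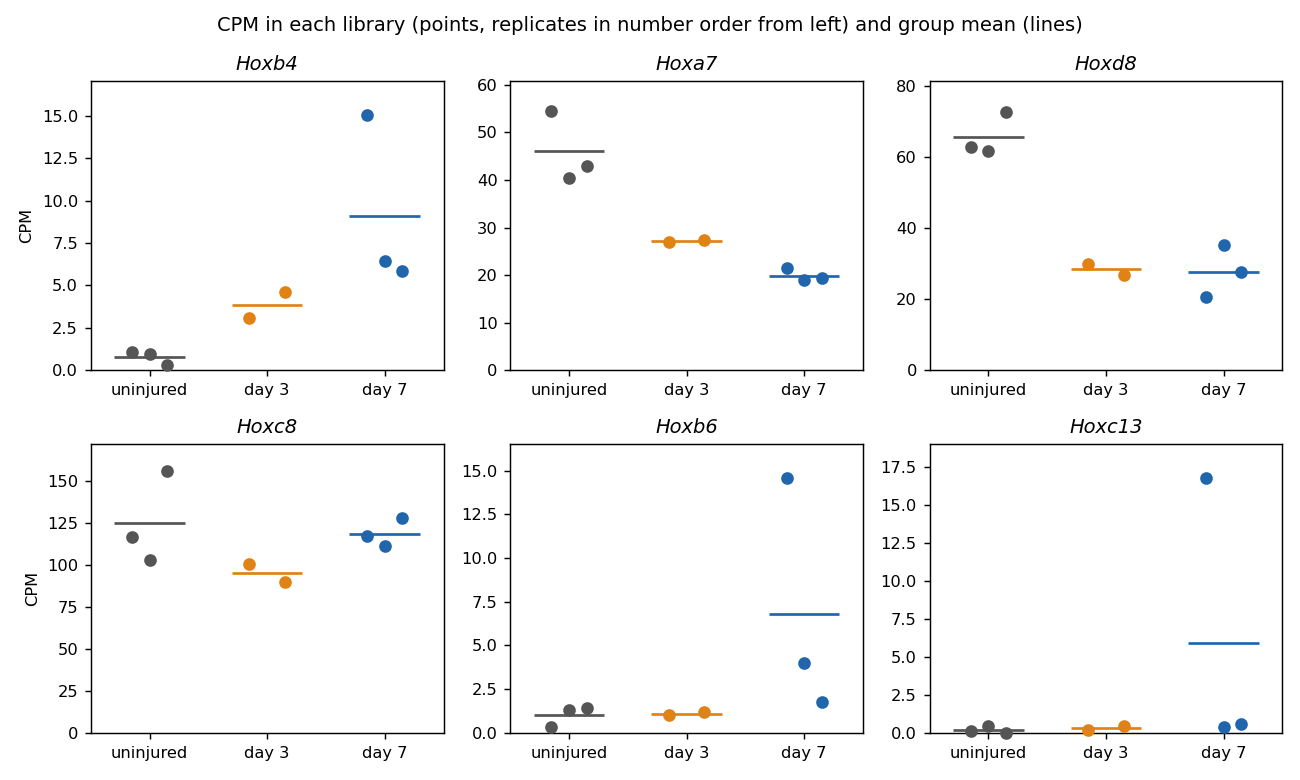
CPM of 6 Hox genes in each library (points) with the mean of each group (lines), from uninjured skin at the left to day 7 at the right. Hoxb4 is higher and Hoxa7 and Hoxd8 are lower in every day 7 library than in every uninjured library, Hoxc8 overlaps between day 7 and uninjured skin, and the day 7 means of Hoxb6 and Hoxc13 rest largely on day 7 library 1.

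Hoxa7 and Hoxd8, both genes of the thoracic range, were the members called lower at day 7. Hoxa7 had 54.5, 40.4 and 43.04 CPM in uninjured skin, 26.9 and 27.5 CPM at day 3 and 21.4, 19.04 and 19.3 CPM at day 7. The 3 groups did not overlap, with uninjured skin highest and day 7 lowest. Hoxa7 fell by 1.21 ± 0.21 on the log2 scale at day 7 relative to uninjured skin, to 0.433 of its level (adjusted p = 0.00979). This call was lost without day 7 library 2 (adjusted p = 0.0541) and without uninjured library 1 (adjusted p = 0.0573). In the deposited table the gene lies on chromosome 6 at 52191471 to 52198834 on the minus strand, and 20.4% of its exon bases are shared with the antisense gene Hoxaas3, which had 2.38, 1.21 and 0.958 CPM at day 7 and 1.10, 1.35 and 1.30 CPM in uninjured skin.

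Hoxd8 had 62.8, 61.6 and 72.8 CPM in uninjured skin, 30.02 and 26.7 CPM at day 3 and 20.5, 35.2 and 27.5 CPM at day 7. Each uninjured library was above each library of both wounded groups, and the day 3 libraries lay within the range of the day 7 libraries. At day 7 Hoxd8 fell by 1.24 ± 0.24 on the log2 scale, to 0.423 of its uninjured level (adjusted p = 0.0135). Without uninjured library 1 the adjusted p was 0.0523, and without uninjured library 3 it was 0.0527. The gene lies on chromosome 2 at 74534959 to 74538277 on the plus strand in the deposited table and shares no exon base with another annotated gene. Hoxd9, its neighbour on the cluster, had 16.2, 13.5 and 18.1 CPM in uninjured skin, 7.40 and 12.8 CPM at day 3 and 10.1, 7.84 and 6.11 CPM at day 7. The day 7 and uninjured libraries of Hoxd9 did not overlap, with the day 7 libraries lower, but the difference of -0.99 ± 0.32 was not called by edgeR (adjusted p = 0.0845) and was called lower by DESeq2 (adjusted p = 0.0478). The other 7 Hoxd genes had too few counts to be tested. Summed skeletal muscle markers, like Hoxa7, Hoxd8 and Hoxd9, were lower at day 7, at 957 to 1871 CPM, against 5376 to 11029.9 CPM in uninjured skin. At day 3 these sums were 3265 CPM in library 1 and 5462 CPM in library 2, the latter within the uninjured range. In the same libraries Hoxd8 had 30.02 and 26.7 CPM and Hoxd9 had 7.40 and 12.8 CPM. The part of the skeletal muscle markers in the Hox values was not tested.

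In the Hoxc cluster, which held the largest share of the Hox level, 0 of 6 tested genes were called by edgeR at day 7, with 3 at an unadjusted p under 0.05. Over all genes tested, 4987 of 18656 were at an unadjusted p under 0.05. Hoxc4 had 0.976, 2.63 and 2.74 CPM in uninjured skin, 5.14 and 5.24 CPM at day 3 and 5.77, 6.81 and 4.67 CPM at day 7. Hoxc5 had 33.8, 27.1 and 29.8 CPM in uninjured skin, 22.4 and 17.9 CPM at day 3 and 10.98, 17.9 and 23.5 CPM at day 7. Hoxc6, a gene of the upper thorax, had 43.1, 34.1 and 41.02 CPM in uninjured skin, 25.1 and 25.9 CPM at day 3 and 29.8, 31.4 and 36.4 CPM at day 7. Day 7 libraries were above the uninjured ones for Hoxc4, below them for Hoxc5, and overlapped with them for Hoxc6. Hoxc9, a thoracic gene, had 52.9, 54.3 and 54.2 CPM in uninjured skin, 34.1 and 36.4 CPM at day 3 and 33.1, 26.8 and 40.96 CPM at day 7, and Hoxc10, a lumbar gene used in the hind limb, had 5.24, 6.25 and 4.77 CPM in uninjured skin, 8.64 and 4.70 CPM at day 3 and 13.9, 3.64 and 14.9 CPM at day 7. Hoxc9 was lower in all day 7 libraries, while day 7 library 2 placed Hoxc10 below all uninjured libraries and the other two day 7 libraries lay above them. The fold changes were 1.43 ± 0.46 for Hoxc4 (adjusted p = 0.0817), -0.79 ± 0.29 for Hoxc5 (adjusted p = 0.111), -0.28 ± 0.20 for Hoxc6 (adjusted p = 0.400), -0.68 ± 0.21 for Hoxc9 (adjusted p = 0.0745) and 0.98 ± 0.50 for Hoxc10 (adjusted p = 0.227). DESeq2 called Hoxc4 higher (adjusted p = 0.0433). Hoxc5 and Hoxc10 share 166 exon bases on the same strand, so a small part of their counts is uncertain.

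The other 6 tested Hoxa genes gave no call at day 7 and none was called by DESeq2. Of these, 2 were at an unadjusted p under 0.05, beside 4987 of the 18656 genes tested. Hoxa3, a gene of the neck and thymus, had 0.366, 0.367 and 0.289 CPM in uninjured skin, 2.06 and 0.535 CPM at day 3 and 2.49, 1.77 and 0.359 CPM at day 7. Hoxa4 had 0.976, 0.796 and 1.16 CPM in uninjured skin, 1.03 and 0.428 CPM at day 3 and 1.13, 1.03 and 3.11 CPM at day 7. Levels of both were low and their libraries overlapped between day 7 and uninjured skin. Hoxa5, a gene of the lung and of fat depots, had 2.81, 2.57 and 2.60 CPM in uninjured skin, 5.14 and 4.92 CPM at day 3 and 8.83, 6.53 and 3.59 CPM at day 7, with all day 7 libraries above all uninjured ones. Hoxa9, a gene of blood cell precursors and the lumbar region, had 20.7, 11.2 and 18.2 CPM in uninjured skin, 5.96 and 9.62 CPM at day 3 and 11.1, 10.5 and 13.7 CPM at day 7. Hoxa10, best known from the uterus, had 10.5, 5.45 and 7.80 CPM in uninjured skin, 12.96 and 9.73 CPM at day 3 and 8.15, 7.65 and 12.6 CPM at day 7. Libraries of Hoxa9 and Hoxa10 overlapped between day 7 and uninjured skin. The fold changes at day 7 were 2.12 ± 0.85 for Hoxa3 (adjusted p = 0.141), 0.85 ± 0.66 for Hoxa4 (adjusted p = 0.425), 1.25 ± 0.42 for Hoxa5 (adjusted p = 0.0942), -0.51 ± 0.32 for Hoxa9 (adjusted p = 0.326) and 0.26 ± 0.36 for Hoxa10 (adjusted p = 0.659). Read by paralogue number over all clusters, the 8 tested genes of groups 1 to 4 all had positive fold changes, with a median of 1.39, the 10 of groups 5 to 8 had 5 positive and 5 negative, and the 6 of groups 9 and 10 had 3 of each. In groups 1 to 4, Hoxa3, Hoxa4, Hoxb1, Hoxb3 and Hoxb4 passed the filter on low counts only with the help of wounded libraries, which favours positive values.

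**Figure D3:**
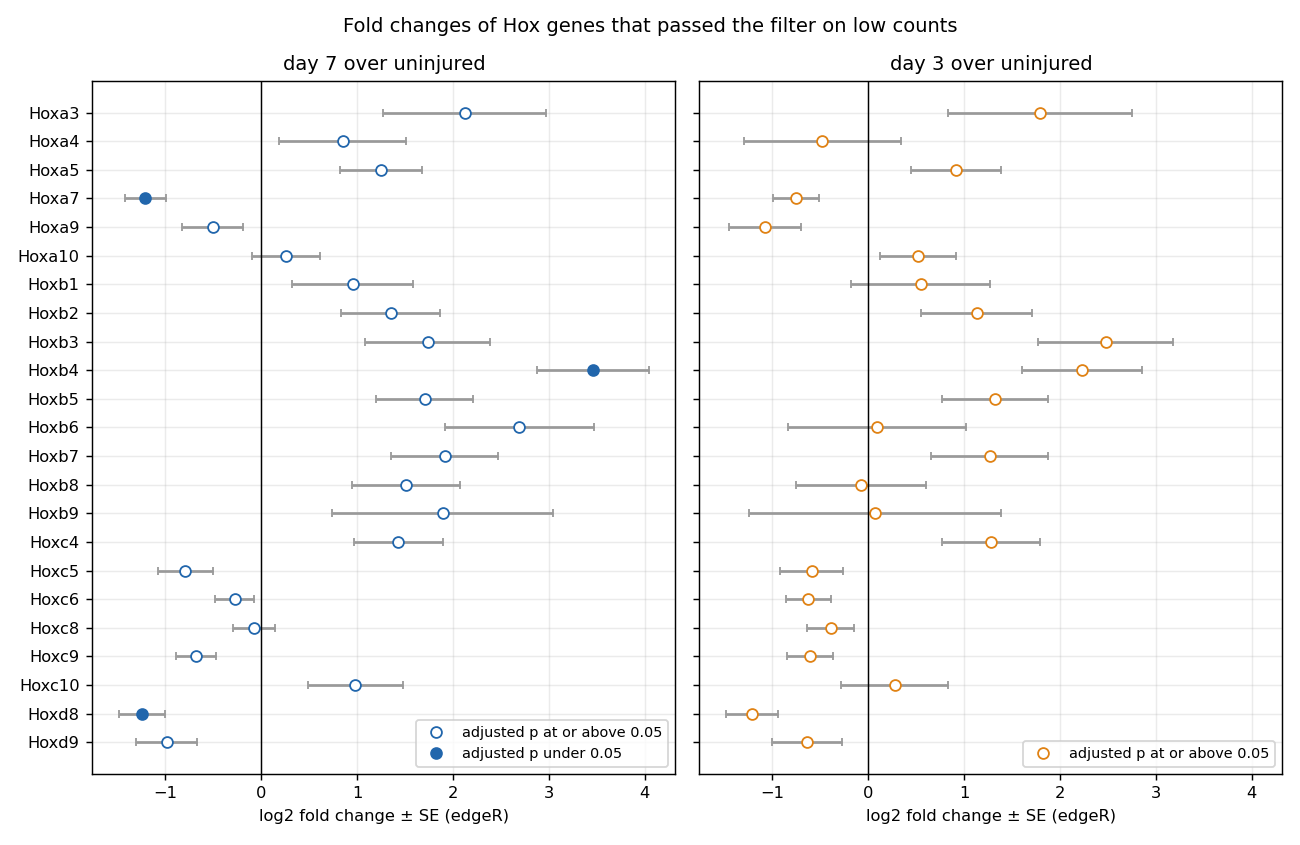
Log2 fold change ± SE from edgeR for the tested Hox genes described in the text, at day 7 over uninjured skin at the left and at day 3 over uninjured skin at the right, with filled points for adjusted p under 0.05. All Hoxb genes lie above 0 at day 7, and the filled points are Hoxb4, Hoxa7 and Hoxd8.

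All 9 genes of paralogue groups 11 to 13 were among the 15 members with too few counts to be tested. Hoxc13, a hair follicle and nail gene, was the exception to their low level. It had 0.122, 0.429 and 0 CPM in uninjured skin, 0.206 and 0.428 CPM at day 3 and 16.8, 0.373 and 0.599 CPM at day 7, so a single day 7 library carried the signal, with 148 counts there. In the same library the 11 keratinocyte and hair follicle markers summed to 5710 CPM, against 1899 and 1667 CPM in day 7 libraries 2 and 3. These markers summed to 1679 to 2729.7 CPM in uninjured skin and to 1206 and 4691 CPM at day 3. Day 3 library 2, with the sum of 4691 CPM, had 0.428 CPM of Hoxc13. The part of these markers in the Hoxc13 value was not tested. Tyr, the pigment cell tyrosinase, chosen after its values were seen, had 10.5 CPM in day 7 library 1 and at most 0.980 CPM in any other. None of the other 14 untested members passed 1.03 CPM in any library.

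At day 3, 0 of the 24 tested members were called against uninjured skin by edgeR, where the background was 0.0107% of all genes, or 2 genes. At an unadjusted p under 0.05 there were 9, beside 2418 of the 18656 genes tested. DESeq2 called Hoxb4 higher and Hoxd8 lower (adjusted p = 0.0407 and 0.0141), where over all genes it called 324 higher and 100 lower. Libraries did not overlap for 16 members, 8 higher and 8 lower at day 3, or 66.7% beside a background of 34.1% (16.9% higher and 17.2% lower). Fold changes were 2.48 ± 0.70 for Hoxb3 (adjusted p = 0.218), 2.23 ± 0.62 for Hoxb4 (adjusted p = 0.215), 1.32 ± 0.55 for Hoxb5 (adjusted p = 0.353) and 1.28 ± 0.51 for Hoxc4 (adjusted p = 0.328). They were -1.21 ± 0.27 for Hoxd8 (adjusted p = 0.167), -1.08 ± 0.38 for Hoxa9 (adjusted p = 0.285), -0.76 ± 0.24 for Hoxa7 (adjusted p = 0.255) and -0.39 ± 0.24 for Hoxc8 (adjusted p = 0.514). Day 3 library 1 carried the highest Hoxb3 value of the series, 5.76 CPM, and also the highest Hoxb3os value, 12.3 CPM. The day 3 and day 7 comparisons use the same uninjured libraries, so their fold changes are given side by side and are not independent.

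Between day 7 and day 3, edgeR called 0 of the 24 members, where the background was 0.0858% of all genes (0.0643% higher and 0.0214% lower). There were 2 members at an unadjusted p under 0.05, beside 2054 of the 18656 genes tested. DESeq2 called 0 of the 23 members it tested, where over all genes it called 147 higher and 86 lower. Libraries did not overlap for 8 members, 7 higher and 1 lower at day 7, or 33.3% beside a background of 25.5% (14.2% higher and 11.4% lower). Hoxb6 had a difference of 2.60 ± 0.92 (adjusted p = 0.398) and Hoxb8 one of 1.59 ± 0.67 (adjusted p = 0.428), with all 3 day 7 libraries above both day 3 libraries for each. For Hoxb4 the difference was 1.23 ± 0.60 (adjusted p = 0.475) and for Hoxd8 it was -0.03 ± 0.26 (adjusted p = 0.977). The day 3 libraries of Hoxb6 and Hoxb8 lay within the uninjured range, while Hoxb4, Hoxb5 and Hoxb7 had day 3 libraries above all uninjured ones.

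As a reading of body position, the Hox profile was weighed along the paralogue number, each gene counting by its level per kilobase. The weighted mean paralogue number was 7.60, 7.61 and 7.67 in uninjured skin, 7.38 and 7.44 at day 3, and 7.48, 7.26 and 7.53 at day 7. Values of both wounded groups lay below all uninjured values, and by group the mean was 7.42 ± 0.144 (SD, n = 3) at day 7 and 7.63 ± 0.0349 (SD, n = 3) in uninjured skin, a difference of -0.205. At day 3 it was 7.41 ± 0.0396 (SD, n = 2), a difference of -0.218 from uninjured skin. These are shifts of under a single paralogue position, and as a score over the members they carry no test. The score mixes position along each cluster with the split of the level between clusters, which is given below. Within clusters, the means at day 7 and in uninjured skin were 7.00 and 7.26 for Hoxa, and 5.50 and 5.63 for Hoxb. They were 7.81 and 7.62 for Hoxc, and 8.22 and 8.24 for Hoxd. Day 7 and uninjured libraries overlapped within each cluster. With the members at 10 or more counts weighted equally instead, the groups overlapped, since uninjured library 2, at 5.957, lay below every wounded library. Leaving out Hoxc13 took the value of day 7 library 1 to 7.23, against 7.25 and 7.52 in the other two day 7 libraries, and the difference of day 7 from uninjured skin to -0.292. Paralogue group 8 held the largest share of the level in every group, with 43.2% ± 3.99 in uninjured skin, 37.6% ± 1.36 at day 3 and 38.96% ± 6.01 at day 7. Groups 1 to 4 together held 1.96% ± 0.523 in uninjured skin, 6.54% ± 0.354 at day 3 and 7.24% ± 1.39 at day 7, and the wounded libraries were all above the uninjured ones. Most of that was group 4, at 1.14% ± 0.231 in uninjured skin, 3.56% ± 0.400 at day 3 and 5.06% ± 0.718 at day 7. Group 9 held 20.8% ± 0.835 in uninjured skin, 17.76% ± 3.504 at day 3 and 14.9% ± 1.30 at day 7, and all day 7 libraries were below the uninjured ones. The means of the other tail-end groups were higher after wounding. Group 10 held 3.60% ± 0.501 in uninjured skin, 6.05% ± 1.31 at day 3 and 6.22% ± 2.46 at day 7, and groups 11 to 13 together held 0.304% ± 0.149 in uninjured skin, 0.860% ± 0.216 at day 3 and 1.93% ± 2.48 at day 7. For group 10 and for groups 11 to 13, day 7 libraries overlapped with uninjured ones and day 3 libraries lay above them.

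**Figure D4:**
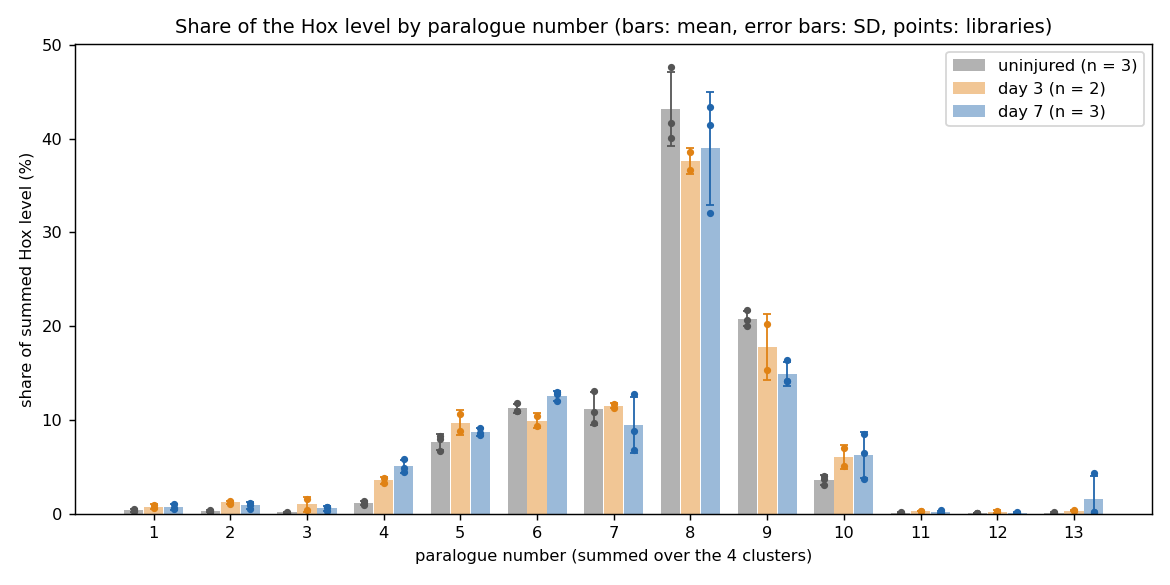
Share of the summed Hox level (CPM per kilobase, %) held by each paralogue number over the 4 clusters, as group means (bars), SD (error bars) and libraries (points). Paralogue number 8 is the peak in all 3 groups. The day 3 and day 7 bars are above the uninjured bars from 1 to 5 and from 10 to 13. They are below them at 8 and 9, and on either side of them at 6 and 7.

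The clusters reached unequal distances toward the tail end. With at least 10 counts taken as detected, the highest detected number was 10 in the Hoxa cluster and 9 in the Hoxd cluster in all 8 libraries. It was 10 in the Hoxc cluster in every library except day 7 library 1, where it was 13, and 7 to 9 in the Hoxb cluster. Detected members numbered 14, 23 and 16 in uninjured skin, 18 and 20 at day 3, and 24, 24 and 20 at day 7. With all libraries scaled to the depth of the shallowest, these were 13, 14 and 13 in uninjured skin, 18 and 16 at day 3, and 22, 20 and 17 at day 7, so the wounded libraries were then all above the uninjured ones. The lowest detected number of the Hoxd cluster was 8 in every library, so Hoxd1 to Hoxd4 were not detected at this depth.

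By cluster, the Hoxb share was higher and the Hoxd share lower after wounding. The Hoxb cluster held 2.91%, 3.70% and 2.87% of the summed level in uninjured skin, 10.5% and 9.02% at day 3, and 23.7%, 11.7% and 7.74% at day 7. Neither wounded group overlapped with uninjured skin, and the spread within day 7 was wide, with library 1 at about 3 times library 3. The Hoxd cluster held 19.5%, 20.8% and 20.7% in uninjured skin, 12.7% and 14.7% at day 3, and 8.45%, 14.3% and 9.69% at day 7, all below uninjured skin. Hoxc held the majority everywhere, with 59.4% to 62.5% in uninjured skin, 59.7% to 60.9% at day 3 and 55.8% to 69.8% at day 7. Hoxa held 13.9% to 18.1% in uninjured skin, 16.0% to 16.6% at day 3 and 12.1% to 13.3% at day 7. Shares of a total are tied to each other, so a gain in one cluster lowers the rest.

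**Figure D5:**
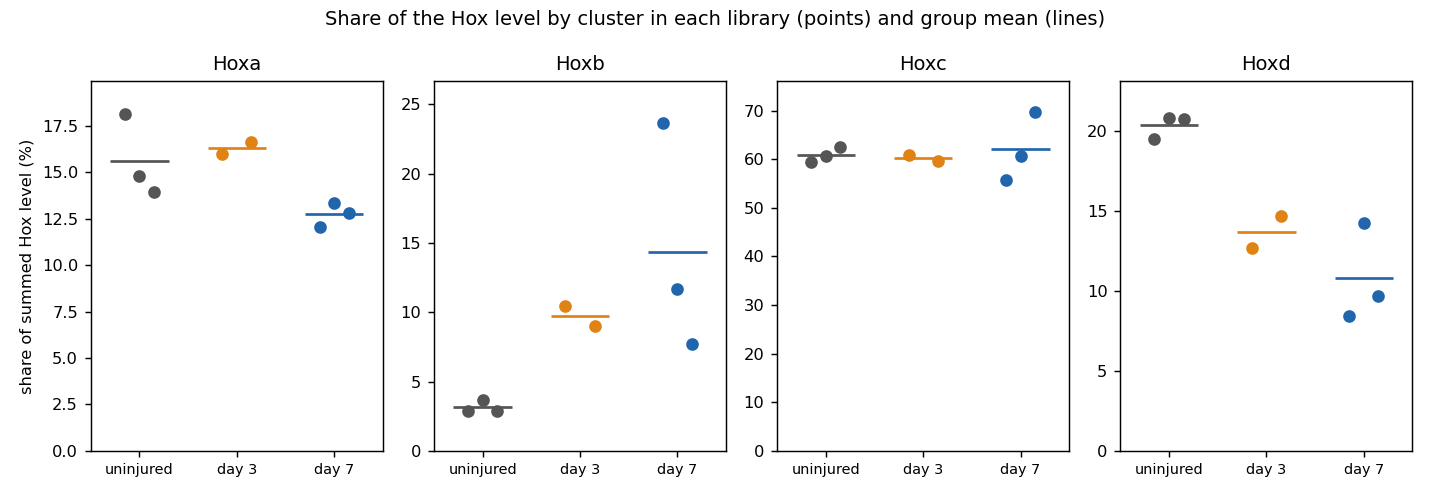
Share of the summed Hox level (CPM per kilobase, %) held by each cluster, with 1 point per library and the group mean as a line. The Hoxb share is higher and the Hoxd share lower in all day 3 and day 7 libraries than in uninjured skin, while Hoxc holds 55.8% or more in each library.

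The libraries resembled each other closely across all 39 members. Pearson's r between log2 levels per kilobase (with 0.1 added) was 0.871 to 0.973 over the 7 pairs of libraries within a group and 0.785 to 0.955 over the 21 pairs between groups. This is a description across genes, which are not independent replicates, and the pairs share libraries.

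The TALE proteins, which bind DNA together with Hox proteins, were tested for all 9 listed genes. At day 7, 1 was called higher and 1 lower, beside a background of 5.9% higher and 1.77% lower over all genes tested. Pbx4, a cofactor with its main role in the testis, had 3.40, 1.77 and 1.08 CPM at day 7 and 0, 0.245 and 0 CPM in uninjured skin, a rise of 4.05 ± 1.02 on the log2 scale (adjusted p = 0.0367). Pknox2, a TALE protein related to the Meis proteins, had 0.792, 1.77 and 0.599 CPM at day 7 and 7.07, 3.55 and 3.75 CPM in uninjured skin (log2 fold change -2.14 ± 0.55, adjusted p = 0.0399). Meis1 had 12.9, 14.8 and 10.9 CPM at day 7 and 7.56, 6.55 and 5.34 CPM in uninjured skin, without overlap but without a call (adjusted p = 0.0697). The median log2 fold change of the 9 was 0.62, beside 0.04 for all genes.

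Of 15 chromatin regulators that keep Hox clusters silent or active, 1 was called higher at day 7 and 0 lower, with a median log2 fold change of 0.01. The background over all genes tested was 5.9% higher and 1.77% lower, here and for the axial and non-coding genes below. A single call among 15 genes lies near that background. Cbx2, a Polycomb reader of silenced chromatin, had 10.1, 4.20 and 7.31 CPM at day 7 and 2.32, 2.33 and 2.02 CPM in uninjured skin (log2 fold change 1.68 ± 0.44, adjusted p = 0.0417). Kmt2a, the trithorax enzyme that maintains active Hox genes, had 59.8, 41.2 and 13.3 CPM at day 7 and 10.98, 17.6 and 11.7 CPM in uninjured skin and was not called (adjusted p = 0.0639). The Polycomb enzymes Ezh1 and Ezh2 were not called either (adjusted p = 0.346 and 0.278). Of the 11 genes listed as regulators of the axis upstream of Hox, 5 could be tested and 1 was called higher, Gdf11, the secreted signal that sets the change from trunk to tail, with 5.09, 3.27 and 1.44 CPM at day 7 and 0.488, 0.674 and 0.433 CPM in uninjured skin (log2 fold change 2.55 ± 0.67, adjusted p = 0.0423). Cdx1, Cdx2 and Cdx4, which switch on trunk Hox genes in the embryo, stayed at or below 0.429 CPM in all 8 libraries. Of the non-coding genes within the clusters, 15 were in the table, 5 could be tested and none was called by edgeR at day 7, with a median log2 fold change of 0.27 and Hoxb3os nearest to the threshold (adjusted p = 0.0574).

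Other homeobox and T-box genes that mark position in skin and limb gave 6 called higher and 0 lower of 19 tested at day 7, with a median log2 fold change of 0.16. The background over all genes tested was 5.9% higher and 1.77% lower. Msx1 and Msx2, targets of BMP signals, had 41.7, 9.70 and 2.75 CPM and 31.8, 11.2 and 5.63 CPM at day 7, and 1.22, 0.612 and 0.867 CPM and 0, 0.674 and 0 CPM in uninjured skin (adjusted p = 0.0173 and 0.0151). Dlx3, a gene of the hair follicle, had 51.1, 9.80 and 3.83 CPM at day 7 and 1.95, 2.27 and 1.16 CPM in uninjured skin (adjusted p = 0.0315). For these 3 the highest library was day 7 library 1, the one with the Hoxc13 signal and the highest keratinocyte and hair follicle sum of its group. Lmx1b, which marks the dorsal side of the limb, had 6.45, 4.95 and 1.92 CPM at day 7 and 0, 0.0612 and 0.289 CPM in uninjured skin (adjusted p = 0.0211), and Tbx18, a gene of the heart and ureter, had 8.60, 7.93 and 2.87 CPM at day 7 and 1.71, 0.612 and 0.433 CPM in uninjured skin (adjusted p = 0.0279). Shox2, a gene of the proximal limb, had 19.5, 21.2 and 22.2 CPM at day 7 and 8.90, 8.51 and 5.20 CPM in uninjured skin, with close libraries and a log2 fold change of 1.46 ± 0.29 (adjusted p = 0.0168). En1, the gene that marks scar-forming fibroblasts of the back, had 11.9, 11.3 and 7.07 CPM at day 7 and 9.76, 5.57 and 12.6 CPM in uninjured skin, and Tbx15, a gene of dorsal skin and of fat cells, had 15.5, 15.2 and 15.9 CPM at day 7 and 30.5, 14.5 and 16.2 CPM in uninjured skin. Neither was called (adjusted p = 0.890 and 0.476). The limb genes Tbx4 and Tbx5 did not pass 0.599 CPM in any library. In none of these lists was a gene called at day 3 against uninjured skin or at day 7 against day 3 by edgeR.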

How the data were processed

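The deposited values were raw read counts per gene, with 1 column per library and no normalization. Counting used featureCounts 2.0.8, per the file headers, and the submitters' processing notes list STAR 2.7.10b, DESeq2 and mm10. How strand and multi-mapping reads were handled is not given in the sources used here. Identifiers were matched to symbols through GENCODE M21 (52093 of 53700 matched). None of the 39 members had the same start there, so table coordinates are given without a build.

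Genes passing edgeR's filter (minimum count 10) were normalised by TMM and tested in R 4.3.3 with edgeR 4.0.16, glmQLFit and glmQLFTest, with 1 mean per group over all 8 libraries, two-sided, and Benjamini-Hochberg adjustment over 18656 genes. Levels per kilobase use the table's gene length. On simulated counts for day 7 against uninjured skin with 18656 genes, 14 of 100 genes changed 2-fold and 79 of 100 changed 4-fold were recovered, with 5 false calls. The changed genes were drawn from those above a minimum expected count in uninjured skin, which Hoxb3 and Hoxb4, for example, did not reach. Recovery at such low levels was not measured. Values in every library are given for members that were called or reached a group mean of 1 CPM. From other lists, called genes and those of smallest adjusted p are named, and further ones (Ezh1, Ezh2, Kmt2a, En1, Tbx15, the Cdx genes, Tbx4 and Tbx5) were chosen for their roles. The members and lists were chosen with earlier results of these data known. Some genes and sequences are not reported here, but they stay in the counts and sums. Alternatives were other scalings, filters, DESeq2 1.42.0, a replicate block, and each library left out.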

Additional observations from a re-analysis of the deposited data

How the results depend on the processing

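For day 7 against uninjured skin, 1 Hox gene was called higher with the settings reported, against 5 with no filter on low counts, 5 with DESeq2 and 3 with the replicate number as a block, and 1 to 8 with a library left out. Over all genes, the 1101 called higher became 2362, 1870 and 1563 in the same order, and 238 to 2616 with a library left out. The 2 Hox genes called lower became 0 to 4 with a library left out (0 without uninjured library 1, 1 without day 7 library 2 or uninjured library 3, and 4 without day 7 library 3) and 3 with DESeq2. Over all genes, the 330 called lower became 76 to 1439 with a library left out and 659 with DESeq2. For day 3 against uninjured skin, 0 Hox genes higher and 0 lower became 1 and 1 with no filter and with DESeq2. Over all genes, 2 higher and 0 lower became 696 and 230 with no filter, and 324 and 100 with DESeq2. For day 7 against day 3, 0 Hox genes called higher became 2 with no filter, while over all genes 12 became 369. The labels do not state that the replicate numbers pair the libraries. After group means were removed, the 7 correlations of same-numbered libraries ran from -0.0741 to 0.203. Those of libraries with different numbers ran from -0.225 to 0.207. With so few libraries in each group these values cannot decide whether the libraries are paired. The difference in mean paralogue number was -0.515 at day 7 and -0.462 at day 3 relative to uninjured skin with detected members weighted equally, where uninjured library 2 (5.957) lay below all wounded libraries (5.958 to 6.458), and -0.321 and -0.313 without Hoxc8, and -0.124 at day 7 without day 7 library 2. With at least 1 count taken as detected, day 7 libraries had 0.667 more members than uninjured ones, against 5 more at 10 counts, and a difference of -2 from day 3 libraries, against 3.67. Leaving out Hoxc8, Hoxc5 or Hoxc13 was added after seeing the data.

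Of the 24 tested members, 10 gained a call at day 7 under at least 1 alternative and 2 (Hoxa7 and Hoxd8) lost one. No called direction turned. Among the uncalled values reported, 2 changed sign when a library was left out: the log2 fold change of Hoxc8 at day 7 relative to uninjured skin ran from -0.20 to 0.11, and that of Hoxd8 at day 7 relative to day 3 from -0.23 to 0.12.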
